A study of Mus musculus with 20 samples.

Results

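Fatty acid oxidation in BV-2 microglia was followed through 9 genes, chosen by symbol from the 55487 genes of the count table: Cpt1a, Slc25a20 and Cpt2 of the carnitine shuttle, the acyl-CoA dehydrogenase genes Acadvl, Acadl and Acadm, the trifunctional protein genes Hadha and Hadhb, and the coactivator gene Ppargc1b. Of these, 8 passed the filter on low counts and were tested among 12799 genes, and Acadl did not pass it. BV-2 is an immortalised mouse microglial line, established from brain cultures of young C57BL/6 mice and labelled WT. RNA was sequenced from 20 cultures in 4 groups of 5: young (control) cells at low passage and aged cells kept in long-term culture, each untreated or treated with LPS at 100 ng/ml for 6 h. LPS, lipopolysaccharide, is a bacterial cell wall component that activates Toll-like receptor 4, and all cultures were kept in DMEM with serum. Aged and young cells are passage states of 1 line, so that age here is time in culture, and whether the 5 aged cultures came from separate long-term cultures is not given in the sources used here. P-values thus measure the spread between these cultures.

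Long-chain fatty acids enter the mitochondrial matrix as carnitine esters. Carnitine palmitoyltransferase 1 at the outer membrane makes the ester, the carnitine-acylcarnitine translocase carries it across the inner membrane and carnitine palmitoyltransferase 2 releases the acyl-CoA, with the outer-membrane step, blocked by malonyl-CoA, as the main point of control. Beta-oxidation then shortens the acyl-CoA in repeated rounds of dehydrogenation, hydration, a further dehydrogenation and thiolysis, and in macrophages and microglia activation by LPS is known to shift energy supply towards glycolysis.

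LPS lowered Cpt1a, Cpt2 and Acadm in cells of both ages. The level of Cpt1a went from 58.1 ± 9.79 to 27.1 ± 6.19 CPM in young and from 58.2 ± 8.28 to 23.1 ± 6.37 CPM in aged cells (mean ± SD, n = 5). Cpt1a fell by 53.6% in young and by 60.2% in aged cells, Acadm by 37.6% and 32.7%, and Cpt2 by 24.3% and 20.1%, while Hadha differed by -1.63% and 0.665% and Acadvl by -3.82% and -4.33%, which did not pass the test. Between ages, Acadvl was lower by 13.4% in aged cells without and by 13.8% with LPS. These calls were lost in 7 and 2 of 20 cases of a library left out. Of its exon bases 42.9% lie opposite the gene Dvl2, whose reads may be mixed in. None of the 8 tested genes passed the test of a difference between ages in its response to LPS, beside 6.39% of all genes called.

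The 20 libraries held 11371508 to 16829292 counts and 0.517% to 1.3% of them were mitochondrial. All 12 microglia and macrophage markers passed the filter, and their summed level spanned 2684 to 3769 CPM in young untreated, 2301 to 3340 in aged untreated, 3077 to 4269 in young LPS and 2696 to 3822 in aged LPS libraries, a sum carried mostly by Cd68 and Csf1r. Cx3cr1, P2ry12 and Fcrls, defining markers of microglia, were low but counted in every young untreated library, at 6 to 28, 6 to 31 and 15 to 26 counts. In aged untreated libraries they had 4 to 12, 9 to 18 and 2 to 12 counts. After LPS they had 3 to 8, 0 to 6 and 2 to 12 counts in young libraries. In aged LPS libraries they had 0 to 10, 0 to 2 and 4 to 7 counts. Single markers differed from the sum: Tmem119 had 17.8 ± 2.71 CPM in young untreated and 2.31 ± 0.743 in young LPS libraries, and 18.0 ± 3.45 and 3.48 ± 0.915 in aged ones (SD, n = 5). Trem2 had 325.7 and 197.3 CPM on average in young and 272.7 and 171.8 in aged libraries without and with LPS, and Spi1 278.0 and 653.6 in young and 245.8 and 540.9 in aged ones. Aif1 had 13.6 ± 3.24 CPM in young and 6.15 ± 0.882 in aged untreated, and 12.5 ± 3.01 in young and 5.16 ± 1.19 in aged LPS libraries. Of the markers of other cell types, 0 of 5 for astrocytes, 0 of 5 for neurons, 0 of 6 for fibroblasts and endothelium and 1 of 5 for oligodendrocytes passed it. The part of marker levels in the results was not tested. Young untreated culture 1 stood apart for the genes described here: it was the highest of its group in 7 of the 8 tested genes. Values are in CPM, that is counts scaled to a common library size with TMM factors, and each is given for cultures 1 to 5, whose numbers name the batch.

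The sequences before the transcription start of the 4 genes that were called lower after LPS in young cells are shown here. They were picked by that test result, and Hadhb was not called in aged cells (edgeR adjusted p = 0.0669). Each window holds 250 bases before and 50 bases from the start of the RefSeq transcript on GRCm38.p6, 5′ to 3′ on the strand of the gene: Cpt1a at chr19:3323051-3323350 on the plus strand, Acadm at chr3:153944594-153944893 and Cpt2 at chr4:107923540-107923839 on the minus strand, and Hadhb at chr5:30155003-30155302 on the plus strand. Capitals mark the GC box GGGCGG, the CCAAT box CCAAT and the nuclear receptor half-site AGGTCA, each on either strand.
Cpt1a: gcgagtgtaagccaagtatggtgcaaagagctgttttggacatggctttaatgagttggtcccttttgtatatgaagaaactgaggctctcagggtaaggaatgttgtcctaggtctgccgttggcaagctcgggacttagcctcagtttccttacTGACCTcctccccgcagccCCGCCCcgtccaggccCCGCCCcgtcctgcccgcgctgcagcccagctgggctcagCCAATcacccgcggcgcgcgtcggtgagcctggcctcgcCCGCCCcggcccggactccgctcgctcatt
Acadm: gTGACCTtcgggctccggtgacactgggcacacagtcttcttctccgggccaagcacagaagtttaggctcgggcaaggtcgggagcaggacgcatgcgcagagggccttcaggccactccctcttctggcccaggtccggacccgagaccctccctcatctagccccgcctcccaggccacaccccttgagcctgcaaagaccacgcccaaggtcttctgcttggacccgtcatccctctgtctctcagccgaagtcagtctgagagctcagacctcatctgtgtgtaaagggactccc
Cpt2: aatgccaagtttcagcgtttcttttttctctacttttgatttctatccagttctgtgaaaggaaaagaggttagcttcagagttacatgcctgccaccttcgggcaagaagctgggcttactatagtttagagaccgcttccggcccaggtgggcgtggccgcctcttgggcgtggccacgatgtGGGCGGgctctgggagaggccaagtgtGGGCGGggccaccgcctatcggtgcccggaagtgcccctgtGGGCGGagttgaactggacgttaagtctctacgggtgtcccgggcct
Hadhb: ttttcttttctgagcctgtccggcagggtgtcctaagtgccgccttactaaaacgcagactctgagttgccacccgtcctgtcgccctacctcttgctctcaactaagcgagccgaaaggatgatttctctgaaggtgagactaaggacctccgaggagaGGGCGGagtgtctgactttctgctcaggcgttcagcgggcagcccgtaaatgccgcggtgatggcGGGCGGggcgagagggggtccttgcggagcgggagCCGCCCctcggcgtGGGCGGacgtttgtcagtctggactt
The Cpt1a window held a half-site 94 bases before the start, 3 GC boxes and the only CCAAT box among the genes. This window lies within the Cpt1a gene as GENCODE annotates it, which starts further upstream, at chr19:3322334. Acadm held a half-site 249 bases before the start and no GC box, Cpt2 held 3 GC boxes, and Hadhb held 4. A window was found for 8 of the 9 genes (not Ppargc1b). Of these, 3 held the half-site (Cpt1a, Acadm and Acadvl), against 16.3% of 32851 windows of the same length, 6 held a GC box, against 35.7%, and 1 the CCAAT box, against 37.4%. The extended half-site TCAAGGTCA (0.423% of windows), which contains the half-site, the TATA box TATAAA (13.6%), the cyclic AMP element TGACGTCA (1.79%) and the E-box CACGTG (7.15%), each sought on both strands, were in none of them. The Cpt1a, Acadm, Cpt2 and Hadhb windows were 62.3%, 62.3%, 57.3% and 60.7% G and C, against a median of 52.7% over all windows. Hadha and Hadhb lie head to head, with starts 273 bases apart, and their windows share 228 bases. The only GC box of Hadha, 188 bases before its start, is the same site as the box 90 bases before the start of Hadhb. That site counts for both genes above. These matches describe the letters in these windows and say nothing of binding.

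Per length, Acadm was the most abundant of the genes in untreated cells. In young untreated cells its level was 32.0 ± 2.18 CPM per kb of exon (SD, n = 5), followed by Acadvl at 24.3 ± 2.07 and Hadha at 21.3 ± 1.48, then by Hadhb at 9.91 ± 0.299, Cpt2 at 9.25 ± 1.74, Cpt1a at 7.6 ± 1.28, Ppargc1b at 6.63 ± 0.641 and Slc25a20 at 2.65 ± 0.480. In this order the ranges of mean ± SD overlapped between Acadvl and Hadha, between Hadhb and Cpt2, between Cpt2 and Cpt1a, and between Cpt1a and Ppargc1b. After LPS, Acadm was at 20.0 ± 0.772 CPM per kb in young cells, beside Acadvl at 23.4 ± 1.72 and Hadha at 20.96 ± 1.92, and in aged cells at 19.9 ± 1.77, beside Acadvl at 20.1 ± 1.07 and Hadha at 18.7 ± 1.36. The ranges of mean ± SD of Acadm and Hadha overlapped after LPS at both ages, and those of Acadm and Acadvl in aged cells. Exon lengths are those of all annotated transcripts of a gene together, which need not all be in use in these cells.

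**Figure D1:**
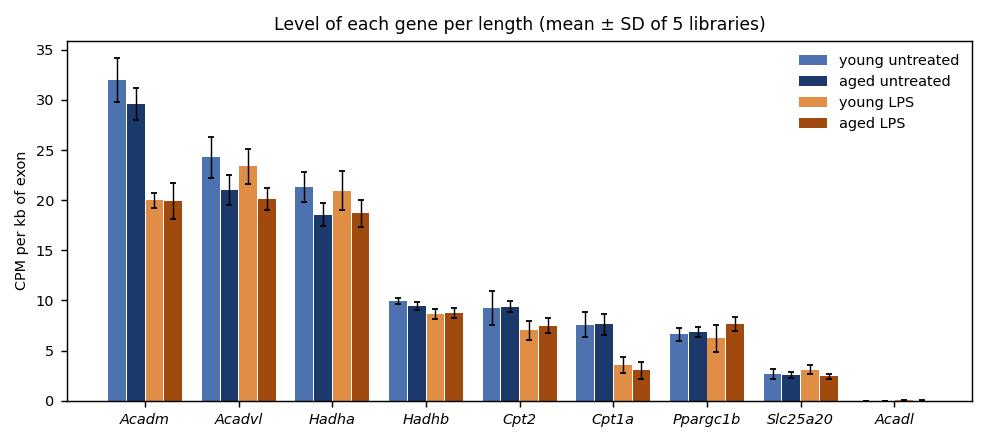
Level of each of the 9 genes in CPM per kb of exon (vertical axis) in the 4 groups, as bars from 0 with the SD of 5 libraries. Acadm is the highest in untreated cells. After LPS it lies below Acadvl and near Hadha in young cells and near both in aged cells, and Acadl is at or near 0 throughout.

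Acadl, which encodes the long-chain acyl-CoA dehydrogenase of mouse tissues, was at or near 0. No read was counted in any of the 10 untreated libraries. Young LPS libraries held 2, 1, 0, 1 and 0 counts and aged LPS libraries 0, 0, 1, 0 and 1. A count of 0 allows up to 0.178 to 0.216 CPM in a single untreated library and up to 0.0203 CPM over the 147992174 counts of the 10 together, for counting error only. These limits are on library totals, without the TMM factors used for the other CPM values. The gene (ENSMUSG00000026003, chr1:66830839-66863277, minus strand; positions here and below are of GENCODE on GRCm38) was therefore not tested.

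Cpt1a, which encodes the carnitine palmitoyltransferase of the outer mitochondrial membrane (ENSMUSG00000024900, chr19:3322334-3385733, plus strand), had the largest log2 fold change after LPS of the 8 tested genes. Its level was 68.2, 62.7, 56.9, 60.5 and 42.2 CPM in young and 53.9, 59.2, 70.8, 58.6 and 48.5 CPM in aged untreated cultures. After LPS it was 36.3, 30.1, 22.7, 25.8 and 20.9 CPM in young and 20.2, 22.4, 34.3, 19.2 and 19.5 CPM in aged cultures. Each LPS-treated culture was thus below each untreated culture, and the ages overlapped with and without LPS. The log2 fold change was -1.11 (SE 0.162, adjusted p = 2.77e-06) in young and -1.33 (SE 0.163, adjusted p = 3.56e-07) in aged cells, and within batches it lay between -1.32 and -0.91 in young and between -1.60 and -1.04 in aged cells. Of all genes tested, 33.5% were called lower after LPS in young and 26.9% in aged cells. The difference between the responses of the ages was -0.22 on the log2 scale, with a 95% interval from -0.70 to 0.25 (adjusted p = 0.677). Fewer reads of a gene in bulk RNA can come from fewer cells that express it or from less RNA per cell, which cannot be told apart here.

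Cpt2, the carnitine palmitoyltransferase of the inner membrane (ENSMUSG00000028607, chr4:107903981-107923610, minus strand), fell less. Young cultures had 27.8, 19.1, 24.6, 21.5 and 17.5 CPM untreated and 20.7, 16.7, 16.1, 14.6 and 16.0 CPM after LPS, and the groups overlapped. Aged cultures had 22.6, 22.2, 22.5, 24.2 and 20.4 CPM untreated and 16.9, 16.7, 19.6, 20.1 and 16.2 CPM after LPS, without overlap. The log2 fold change was -0.40 (SE 0.111, adjusted p = 0.00299) in young and -0.32 (SE 0.109, adjusted p = 0.0153) in aged cells, and it was negative in 5 of 5 batches at both ages.

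Slc25a20, the translocase between the transferases (ENSMUSG00000032602, chr9:108662088-108684641, plus strand), did not pass the test after LPS at either age. Young cultures had 16.6, 13.6, 10.9, 11.1 and 12.1 CPM untreated and 15.2, 18.2, 14.9, 12.0 and 14.6 CPM after LPS, and aged cultures 11.7, 11.6, 13.1, 11.7 and 14.5 CPM untreated and 11.6, 13.0, 12.4, 9.83 and 12.4 CPM after LPS. Both pairs of groups overlapped, and the log2 fold change was 0.22 in young cells, with a 95% interval from -0.024 to 0.47 (adjusted p = 0.107), and -0.074 in aged cells, with an interval from -0.32 to 0.17 (adjusted p = 0.63). In young cells the gene was called higher after LPS without young untreated culture 1 (0.33, adjusted p = 0.0142) or without young LPS culture 4 (0.29, adjusted p = 0.0354), and with 1 library left out the log2 fold change ranged from 0.14 to 0.33. Under LPS, aged cultures were below young ones by 20.6% (log2 fold change -0.33, SE 0.120, adjusted p = 0.0401) and lower in 5 of 5 batches, although their ranges overlapped. Leaving out single libraries of the LPS groups ended that call in 7 of 20 cases (young 1, 2, 3 or 5, aged 1, 4 or 5), with an adjusted p of up to 0.14, as did library totals alone (adjusted p = 0.092), no filter on low counts (adjusted p = 0.061) and a fit of only the groups compared (adjusted p = 0.0508).

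Acadm, the medium-chain acyl-CoA dehydrogenase (ENSMUSG00000062908, chr3:153922357-153944632, minus strand), fell after LPS at both ages, with no overlap between the groups. Untreated cultures had 138.0, 128.1, 120.9, 115.3 and 124.0 CPM when young and 109.5, 114.3, 126.4, 115.6 and 113.4 CPM when aged. After LPS, young cultures had 79.3, 81.7, 75.7, 74.4 and 79.7 CPM and aged cultures 70.9, 78.0, 89.4, 76.7 and 74.7 CPM. No LPS-treated culture reached the lowest untreated one, at 109.5 CPM. The log2 fold change was -0.68 (SE 0.0595, adjusted p = 9.45e-10) in young and -0.57 (SE 0.0593, adjusted p = 2.82e-08) in aged cells, and the difference between the responses was 0.11, with a 95% interval from -0.064 to 0.28 (adjusted p = 0.538).

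Acadvl, the very-long-chain acyl-CoA dehydrogenase of the inner membrane (ENSMUSG00000018574, chr11:70010183-70015411, minus strand), was lower in aged cells and did not pass the test after LPS. Untreated cultures had 74.8, 65.1, 62.2, 61.5 and 62.3 CPM when young and 55.8, 54.2, 63.1, 52.5 and 56.6 CPM when aged. After LPS, young cultures had 70.2, 63.3, 62.3, 59.1 and 58.8 CPM and aged cultures 54.2, 55.2, 57.7, 49.9 and 53.0 CPM. Aged culture 3 overlapped the young range without LPS, and under LPS all aged cultures were below all young ones. The log2 fold change between ages was -0.21 (SE 0.0638, adjusted p = 0.0376) without and -0.21 (SE 0.0649, adjusted p = 0.0156) with LPS, negative in 4 and 5 of 5 batches. After LPS the log2 fold change was -0.056 in young (95% interval -0.19 to 0.077) and -0.064 in aged cells (-0.20 to 0.070). The call without LPS was lost in 7 of 20 cases of a library left out (adjusted p of up to 0.124), without the filter (adjusted p = 0.0845) and with only the groups compared (adjusted p = 0.0607). The call with LPS was lost without young LPS culture 1 or aged LPS culture 4 and with library totals alone in place of TMM (adjusted p = 0.0842). Of its 2686 exon bases, 1151 (42.9%) lie opposite exons of Dvl2, a gene of the Wnt pathway, and the strand setting of the counting is not stated, so that reads of both genes may be mixed. Dvl2 was higher in aged than in young LPS cultures (log2 fold change 0.38, adjusted p = 3.21e-04), and without LPS its log2 fold change was 0.12 (adjusted p = 0.293). Its part in the values of Acadvl was not tested.

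Hadha and Hadhb encode the alpha and beta subunits of the mitochondrial trifunctional protein, which carries the hydratase and long-chain hydroxyacyl-CoA dehydrogenase activities in the former and the thiolase in the latter. Hadha (ENSMUSG00000025745, chr5:30118304-30155162, minus strand) was at 208.1, 180.1, 185.8, 178.4 and 177.0 CPM in young and 164.5, 158.4, 173.9, 147.6 and 166.1 CPM in aged untreated cultures. After LPS it was at 210.5, 186.0, 170.8, 169.6 and 177.9 CPM in young and 164.1, 156.8, 180.4, 148.4 and 166.0 CPM in aged cultures. Untreated aged cultures were all below the young ones, and LPS-treated cultures overlapped between ages. The log2 fold change between ages was -0.20 without LPS (SE 0.0642, adjusted p = 0.0488, 5 of 5 batches), and the call was lost in 13 of 20 cases of a library left out (adjusted p of up to 0.145), with DESeq2's size factors (adjusted p = 0.0612) and without the filter (adjusted p = 0.082). With LPS it was -0.16 and did not pass (adjusted p = 0.0608), but passed with the batch as a block (adjusted p = 0.018) and in DESeq2 (adjusted p = 0.046). LPS itself left Hadha at log2 fold changes of -0.024 in young (95% interval -0.16 to 0.11) and 0.0096 in aged cells (-0.12 to 0.14), the latter -0.15 with library totals alone.

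Hadhb (ENSMUSG00000059447, chr5:30155248-30184593, plus strand) had an SD of 1.97 to 3.56 CPM in the 4 groups. It was at 67.6, 64.5, 64.1, 63.2 and 67.2 CPM in young and 64.9, 63.1, 61.2, 58.4 and 63.8 CPM in aged untreated cultures. LPS-treated cultures had 55.7, 63.3, 54.1, 56.0 and 56.4 CPM when young and 55.6, 56.7, 57.2, 55.9 and 63.1 CPM when aged. At both ages 1 LPS-treated culture, young culture 2 and aged culture 5, reached into the range of untreated ones. The log2 fold change was -0.19 in young cells (SE 0.0497, adjusted p = 0.00162) and -0.11 in aged cells (adjusted p = 0.0669), where it passed with the batch as a block (adjusted p = 0.0447). Per kb of exon, the ratio of Hadha to Hadhb was 2.15 ± 0.123 (SD, n = 5) in young and 1.97 ± 0.104 in aged untreated cultures, and 2.43 ± 0.250 in young and 2.14 ± 0.166 in aged LPS cultures. The ratios span 1.90 to 2.15 in aged and 1.99 to 2.33 in young untreated cultures and overlap, as do those under LPS, at 1.99 to 2.38 in aged and 2.22 to 2.85 in young cultures.

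Ppargc1b encodes PGC-1beta, a coactivator of nuclear receptors that drives mitochondrial genes (ENSMUSG00000033871, chr18:61298136-61400431, minus strand). It was at 23.9, 24.0, 29.0, 26.4 and 29.1 CPM in young and 28.9, 25.9, 24.5, 27.6 and 29.3 CPM in aged untreated cultures. After LPS, young cultures had 16.9, 23.8, 26.2, 31.3 and 25.9 CPM and aged cultures 32.7, 29.5, 26.2, 32.3 and 31.9 CPM. Young LPS cultures had the widest spread, and every pair of groups overlapped. Neither response to LPS passed, at log2 fold changes of -0.086 in young (95% interval -0.32 to 0.14) and 0.16 in aged cells (-0.061 to 0.39). Under LPS, aged cultures were 22.3% above young ones (log2 fold change 0.29, SE 0.111, adjusted p = 0.0526), a difference that passed with the batch as a block (adjusted p = 0.0367) and in DESeq2 (adjusted p = 0.048).

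**Figure D2:**
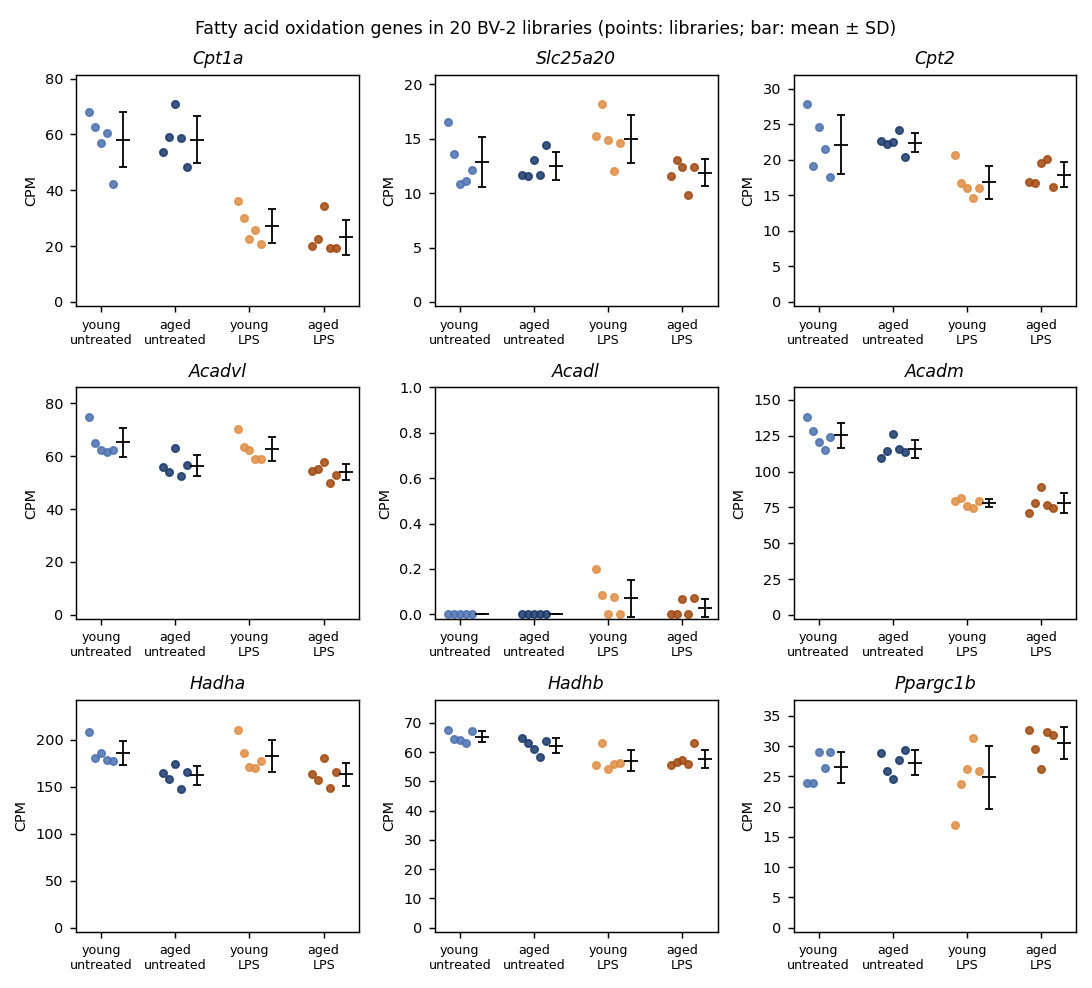
CPM of each gene (vertical axes, from 0) in the 20 libraries, 1 point a library in order of culture number, with the mean and SD of each group beside its points. The groups with and without LPS are apart for Cpt1a and Acadm, and Acadl stays at or below 0.198 CPM.

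Counted together, 4 of the 8 tested genes were lower and none higher after LPS in young cells, beside 33.5% lower and 31.2% higher among all genes, and 3 lower and none higher in aged cells (4 lower with the batch as a block), beside 26.9% lower and 27.5% higher. Without young untreated culture 1 or young LPS culture 4, Slc25a20 joined the calls in young cells as 1 higher gene. The median log2 fold change of the 8 was -0.14 in young and -0.092 in aged cells, against -0.011 and 0.00051 over all genes. Between ages, 2 genes (Acadvl and Hadha) were lower and none higher without LPS, beside 7.81% and 3.71% of all genes, and 2 (Slc25a20 and Acadvl) were lower and none higher under LPS, beside 15.0% and 14.0%. With the batch as a block, 3 were lower and 1 higher under LPS. With library totals alone in place of TMM, the median of all genes moved to -0.23 in young and -0.16 in aged cells after LPS, 27.3% and 28.4% of all LPS calls were higher in place of 48.2% and 50.6%, and 7 and 6 of the 8 genes were called lower. Under LPS, that scaling called 1 gene (Ppargc1b) higher in aged cells and none lower, with 70.1% of all calls higher in place of 48.3%. Leaving out any 1 of 7 untreated libraries (young 1, 2 or 3, aged 1, 2, 4 or 5) left 0 of the 8 called by edgeR between ages without LPS. In the test of the difference between the LPS responses of the ages, 0 of the 8 passed, with edgeR, with the block or with DESeq2, and 0 had an unadjusted p under 0.05, beside 6.39% of all genes called. The adjusted p-values of the 8 in that test lay between 0.361 and 0.987. The LPS contrasts of an age and the age contrasts share groups of cultures, so that their counts are not independent of each other.

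**Figure D3:**
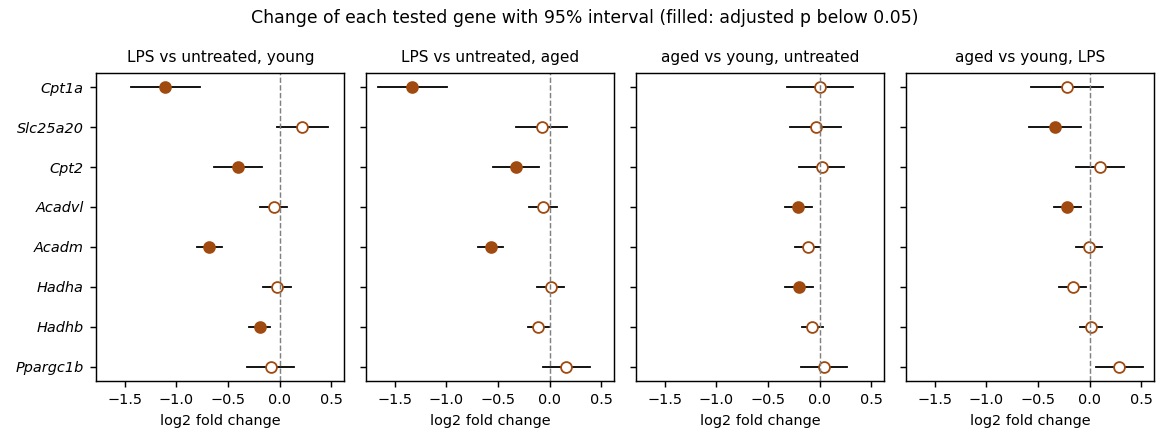
Log2 fold change (horizontal axes) of the 8 tested genes in 4 comparisons, with the 95% interval as a line and filled points for an adjusted p below 0.05. Cpt1a, Cpt2 and Acadm lie left of 0 in both LPS panels, and the differences between ages are smaller than those of Cpt1a and Acadm with LPS.

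The other genes of the pathway were taken from 4 lists, whose counts stand beside the shares of all genes called: 33.5% lower and 31.2% higher after LPS in young and 26.9% and 27.5% in aged cells, and 7.81% lower and 3.71% higher in aged cells without and 15.0% and 14.0% with LPS. Values in parentheses are log2 fold changes, with those of young cells first where both ages are given, and differences between responses are aged minus young. Of 16 further genes of mitochondrial beta-oxidation, 14 were tested, and 8 were lower and 2 higher after LPS in young and 7 lower and 2 higher in aged cells (median log2 fold change -0.42 and -0.27). Crat, the carnitine acetyltransferase, had 64.9 to 82.1 CPM in young untreated and 38.8 to 43.7 CPM in young LPS cultures (log2 fold change -0.78, adjusted p = 1.55e-09), and Acaa2, the medium-chain thiolase, 38.4 to 41.5 and 21.4 to 28.1 CPM (-0.68, adjusted p = 3.24e-06). In aged cells the largest decreases of the list were those of Acaa2 (-0.51, adjusted p = 1.35e-04) and of Etfdh, which passes electrons on to ubiquinone (-0.48, adjusted p = 6.73e-04). Eci2, an enoyl-CoA isomerase for unsaturated chains, rose from 18.5 to 22.9 CPM in young untreated to 39.5 to 61.7 CPM in young LPS cultures (1.13, adjusted p = 4.04e-09) and less in aged ones (0.51, adjusted p = 4.13e-04), and the difference between the responses passed (-0.62, adjusted p = 0.0167), as it did for Crat (0.40, adjusted p = 0.0157). Cpt1b, the muscle form of the outer transferase, was higher after LPS (0.96, adjusted p = 5.48e-04 in young and 1.22, adjusted p = 1.01e-04 in aged cells) at 1.47 to 6.79 CPM over all libraries, and 81.4% of its exon bases are shared with Gm44502 on the same strand, so that its count is uncertain. Between ages without LPS, 3 of the list were lower and none higher, with Echs1, the short-chain hydratase (-0.32, adjusted p = 0.0126), and Acads, the short-chain dehydrogenase (-0.22, adjusted p = 0.0366), as the largest. Under LPS, Hadh (0.22, adjusted p = 0.014) and Etfb (0.18, adjusted p = 0.0445, with 53.0% of its exon bases shared with Gm45233) were higher and Eci2 lower (-0.76, adjusted p = 1.3e-05) in aged cells. With the block 4 were higher and 2 lower, with DESeq2's size factors 1 and 1, and with library totals alone 4 and 1.

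Of 14 genes of peroxisomal oxidation, 11 were tested. After LPS, 9 were lower and 2 higher in young cells and in aged cells 8 were lower and 2 higher (median -0.43 and -0.29), beside 33.5% lower and 31.2% higher of all genes in young and 26.9% and 27.5% in aged cells. Abcd2, a transporter of very-long-chain acyl-CoA into peroxisomes, went from 30.1 to 42.8 CPM in young untreated to 1.03 to 2.47 CPM in young LPS cultures (log2 fold change -4.37, adjusted p = 2.57e-14) and from 18.2 to 24.1 to 0.42 to 2.0 CPM in aged cultures (-4.07, adjusted p = 7.03e-13). Crot, which moves medium-chain acyl groups onto carnitine, fell by 1.77 (adjusted p = 1.15e-11) and 1.28 (adjusted p = 2.91e-09) on the log2 scale. Acaa1a, a peroxisomal thiolase, rose (0.30, adjusted p = 0.00442, and 0.28, adjusted p = 0.0103). Without LPS, 5 were lower and none higher in aged cells, beside 7.81% and 3.71% of all genes, Abcd2 (-0.87, adjusted p = 6.11e-04) and Acox3, an oxidase of branched chains (-0.80, adjusted p = 0.00453), the most. Under LPS, 2 of the list were lower, among them Acaa1a (-0.47, adjusted p = 2.73e-04), and Crot was higher (0.35, adjusted p = 0.0499, not called with DESeq2's size factors) in aged cells, against 2 lower and 2 higher with library totals alone. With library totals alone in place of TMM, 9 were lower after LPS at both ages and none higher, so that the rise of Acaa1a depends on the scaling.

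Of 17 regulators, 12 were tested. After LPS, 6 were lower and 1 higher in young cells (6 lower and 4 higher with the block, and 6 lower and 3 higher with DESeq2's size factors), and 6 lower and 2 higher in aged cells (7 lower and 1 higher with library totals alone), with medians of -0.18 and -0.20. Lpin1, the phosphatidate phosphatase and coactivator lipin 1, went from 23.0 to 26.1 CPM to 0.34 to 1.92 CPM in young (-4.37, adjusted p = 1.89e-11) and from 12.5 to 27.4 CPM to 1.66 to 4.99 CPM in aged cultures (-2.73, adjusted p = 9.8e-09), a difference between responses of 1.63 (adjusted p = 0.0285). Rxra, the partner of the PPAR receptors, fell by 2.02 (adjusted p = 4.33e-12) and 1.27 (adjusted p = 1.23e-08), and its responses differed by 0.75 (adjusted p = 0.0117). Ppard, the PPAR delta receptor, rose by 1.47 (adjusted p = 2.42e-10) and 1.33 (adjusted p = 3.27e-09), and Prkaa2, a catalytic subunit of AMP-activated kinase, rose in aged cells (0.32, adjusted p = 0.00543). In young cells Prkaa2 just missed the threshold (0.21, adjusted p = 0.0503) and passed with the block (adjusted p = 0.0146) and in DESeq2 (adjusted p = 0.045). The difference between its responses did not pass (0.11, adjusted p = 0.739). Between ages, Nrf1 was higher without LPS (0.23, adjusted p = 0.0376), and under LPS 4 were higher and 1 lower, Lpin1 (1.16, adjusted p = 0.0286) and Nrip1, a corepressor (0.72, adjusted p = 6.82e-04), the most among the former and Ppard (-0.45, adjusted p = 0.00479) the latter. Without LPS, Nrf1 was the 1 regulator called, and with the block 2 were higher and 1 lower. Ppara and Ppargc1a, known regulators of the pathway in liver, and Pdk4 had 0 counts in all 20 libraries, and Pparg had at most 8. Decr1, which belongs to the list of mitochondrial beta-oxidation and not to the regulators, also had 0 counts in all 20 libraries.

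Genes of fatty acid uptake and activation moved in both directions. Of 13, 11 were tested, with 6 higher and 4 lower after LPS in young and 7 higher and 2 lower in aged cells (6 higher and 3 lower with library totals alone), with medians of 0.75 and 0.58. Acsl1, an acyl-CoA synthetase, went from 90.4 to 101.6 CPM in young untreated to 259.0 to 353.5 CPM in young LPS cultures (1.71, adjusted p = 6.56e-14) and less in aged ones (1.29, adjusted p = 1.57e-11), a difference of -0.43 (adjusted p = 0.0331). Among genes of fatty acid binding proteins, Fabp3 (1.42, adjusted p = 2.39e-08, and 1.00, adjusted p = 1.22e-06) and Fabp4 (1.33, adjusted p = 3.29e-09, and 1.37, adjusted p = 5.64e-09) rose at both ages. Acot2, a mitochondrial acyl-CoA thioesterase (-1.46, adjusted p = 3.2e-08, and -0.80, adjusted p = 1.08e-04), and Acsl3, a synthetase of lipid droplets (-1.12, adjusted p = 2.75e-06, and -0.85, adjusted p = 1.01e-04), fell. Between ages without LPS, Fabp3 was higher (1.03, adjusted p = 1.23e-04) and Fabp4 (-0.63, adjusted p = 0.00294) and Slc27a4 (-0.22, adjusted p = 0.0225) lower in aged cells. Under LPS, Fabp3 (0.61, adjusted p = 0.00133) and Acot2 (0.51, adjusted p = 0.0257) were the genes that were higher, and 3 were lower (4 higher and 3 lower with library totals alone), with Fabp4 (-0.59, adjusted p = 8.79e-04) and Acsl1 (-0.47, adjusted p = 1.9e-04) the most. The responses of the ages also differed for the transporter gene Slc27a4 (0.34, adjusted p = 0.0237). With the batch as a block, Acsl3 was also higher in aged cells under LPS (0.39, adjusted p = 0.0269), which made 3 higher, and Fabp5 was lower in aged than in young untreated cells (-0.16, adjusted p = 0.0192) and lower after LPS in aged cells (-0.19, adjusted p = 8.89e-04). Of the exon bases of Acaa1a 6.57% lie opposite Myd88, and of those of Fabp3 9.84% lie opposite Zcchc17, so that these counts may share reads.

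**Figure D4:**
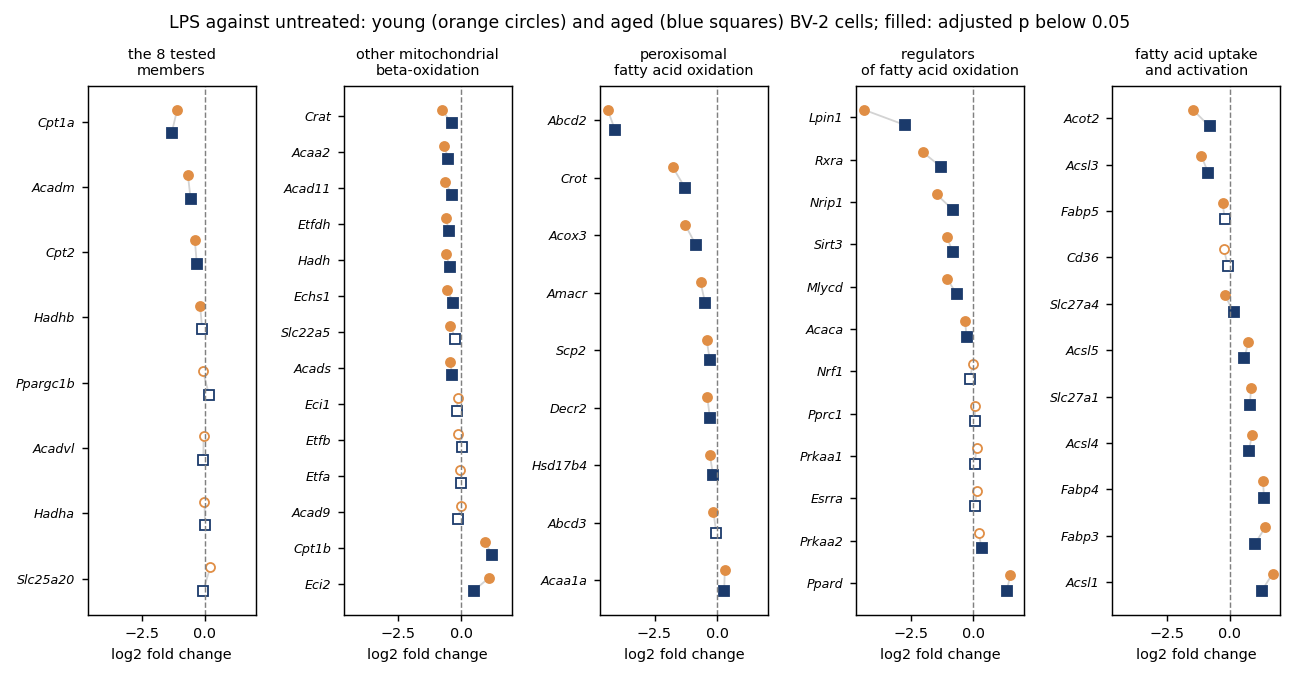
Log2 fold change after LPS (horizontal axes) of tested genes of the pathway, as circles for young and squares for aged cells, filled for an adjusted p below 0.05. Most mitochondrial and peroxisomal genes lie left of 0, with Abcd2 at -4.37 and -4.07, and genes of uptake and activation lie on both sides of 0.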

How the data were processed

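Poly(A) RNA of 20 BV-2 cultures, 5 in each of 4 groups, was sequenced by the authors on an Illumina NextSeq instrument from stranded libraries. Per the submitters' processing notes and the methods, reads were checked with FastQC 0.11.8, aligned to GRCm38 with STAR 2.6.1d and counted per gene with featureCounts 1.5.1. The authors deposited whole-number counts per Ensembl gene, without normalization. Strand, multi-mapping and overlap settings are not given in the sources used here, so that counts of overlapping genes are uncertain. Symbols and exon lengths came from GENCODE M21 on GRCm38, and promoter windows from RefSeq on GRCm38.p6.

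Counts were tested with edgeR 4.0.16 (limma 3.58.1, R 4.3.3), by the quasi-likelihood F-test in 1 model of the 20 libraries that held the group and no covariate, after TMM normalization and filterByExpr (12799 genes kept). P-values were adjusted over all of them by the Benjamini-Hochberg method, with a threshold of 0.05. CPM were computed on TMM-scaled library sizes, whose factors lay between 1.042 and 1.083 in untreated, 0.8911 and 0.9314 in young LPS and 0.9515 and 0.9727 in aged LPS libraries. The floor of detection was 3 counts. Replicate numbers are batch numbers in the labels, with 1 culture of each group in each batch, and so pair the cultures by label. The residuals of cultures with the same number, once group means were removed, were correlated over genes with an average r of 0.146 (-0.215 to 0.394 over 30 pairs). For pairs of the same age r lay between 0.122 and 0.394, and for pairs of a young and an aged culture between -0.215 and 0.275. Pairing between ages thus rests on the labels. Replicates differed beyond sampling noise, with chi-square values of 2.42 to 26.8 per degree of freedom over 40 pairs. Alternatives were DESeq2 1.42.0 (Wald test), the replicate block, DESeq2's size factors, library totals alone, no filter, only the groups compared, and each library left out. On simulated counts for the comparison of untreated ages, with 200 genes changed 2-fold, edgeR recovered 200 with 11 false calls among 12680 genes. The simulation gave all genes the same spread, held no batches and changed only well-counted genes. It therefore cannot tell how changes smaller than 2-fold, such as those of Acadvl and Hadha between ages, would fare.

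Genes and lists were chosen with earlier results of these data known. The text names all 9 genes; of each list and comparison, up to 2 called genes in each direction with the largest change and a mean log2 CPM of at least 1, with genes of the lists below the filter named only in part; and, for the 3 genes with the largest range of group means, the 3 genes with the most similar pattern. Some genes of the lists count in the totals but are not reported by name here. Python 3.11.15, pandas 2.3.3 and matplotlib 3.10.9 made the tables and plots.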

Additional observations from a re-analysis of the deposited data

Results flagged for a closer look

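In 32 groups of 5 libraries (8 genes in 4 groups), 5 held a library whose gap to its nearest neighbour, divided by the range of the group, was above Dixon's critical value of 0.71. Chance gives such a gap in about 1 of 20 groups. Young untreated culture 1 was high for Acadvl, at 74.8 CPM (gap 0.727 of the range), and for Hadha, at 208.1 CPM (0.717). These are the genes called lower in aged untreated cells, and without that library their log2 fold changes were -0.15 and -0.15 and neither was called. Aged LPS culture 3 was high for Cpt1a, at 34.3 CPM (0.786), and without it Cpt1a was called lower in aged than in young LPS cultures (log2 fold change -0.41, adjusted p = 0.0462). Hadhb was high in young LPS culture 2, at 63.3 CPM (0.756), and in aged LPS culture 5, at 63.1 CPM (0.79).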

How the results depend on the processing

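The decreases of Cpt1a, Acadm and Cpt2 after LPS at both ages, and of Hadhb in young cells, kept their direction and passed the threshold under all 26 alternatives. Differences between ages did not. Without LPS, 2 genes were called, against 1 with DESeq2's size factors, 0 without the filter on low counts, 1 with only the groups compared and 0 to 2 with 1 library left out. Leaving out a library ended the call of Acadvl in 7 and of Hadha in 13 of 20 cases. Under LPS, 2 genes were called, against 4 with DESeq2, 4 with the replicate block, 1 with library totals alone, 1 with only the groups compared and 0 to 5 with 1 library left out. The count was 0 without young LPS culture 1 or aged LPS culture 4, 1 without young 2 or 5 or aged 1 or 5, 4 without young 4 and 5 without aged 3. After LPS, library totals alone called 7 genes lower in young cells and 6 in aged cells. That scaling also called more of all genes lower, 6401 in young and 5476 in aged cells, against 4282 and 3445 with TMM. It called fewer of all genes higher, 2407 and 2172, against 3988 and 3523. Leaving out a library gave 4 to 5 calls in young and 3 to 4 in aged cells. The added call in young cells was Slc25a20, as higher. The replicate block changed no call of the 8 genes other than those of Hadhb in aged cells after LPS and of Hadha and Ppargc1b between ages under LPS. None of the 8 passed the test of the difference between responses under the alternatives that hold all 4 groups, a test that 6.39% of all genes passed in the main fit.

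Of 1032 values of single genes under the alternatives, 38 changed direction. With library totals alone, Hadha after LPS in aged cells was at -0.15 (log2 fold change, adjusted p = 0.0282), beside a median of all genes of -0.16, and Acadm between ages under LPS at 0.077 and the difference between responses of Acadvl at 0.052 did not pass. Without the filter, Hadha was at -0.00725 after LPS in aged cells and Acadm at 0.0077 between ages under LPS, and at 0.0032 with only the groups compared. With 1 library left out, values without a call crossed 0. Between ages without LPS, Cpt1a ranged from -0.092 to 0.067, Slc25a20 from -0.096 to 0.067 and Cpt2 from -0.053 to 0.11. After LPS, Hadha ranged from -0.079 to 0.019 in young and -0.029 to 0.042 in aged cells, and Ppargc1b from -0.18 to 0.018 in young cells. Between ages under LPS, Acadm ranged from -0.057 to 0.031 and Hadhb from -0.018 to 0.055. In the difference between responses, Cpt2 ranged from -0.016 to 0.16, Acadvl from -0.061 to 0.037 and Hadha from -0.010 to 0.088. The causes of these changes were not tested.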

Other observations

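The patterns of other genes were compared with those of the 3 genes with the largest range of group means. The measure was the root mean square difference between centred log2 CPM over the 20 libraries, among genes with a mean log2 CPM of at least 1. Closest to Cpt1a were Igfbp4, an insulin-like growth factor binding protein gene, at 0.214, Abcc3, a transporter gene of organic anions, at 0.223 and Xpr1, a phosphate exporter gene, at 0.223. After LPS, Igfbp4 had log2 fold changes of -1.32 in young and -1.12 in aged cells, Abcc3 of -1.33 and -1.11, and Xpr1 of -1.42 and -1.12. Between ages without LPS, Igfbp4, Abcc3 and Xpr1 were at -0.28, -0.39 and -0.16, beside 0.0031 for Cpt1a. Their differences between responses were 0.21, 0.22 and 0.29, beside -0.22 for Cpt1a, so that the likeness lies in the LPS responses and less in age. Closest to Acadm were Mpv17l2, Atraid and Ptgr2, at 0.0774, 0.0823 and 0.0827, with log2 fold changes after LPS of -0.72, -0.62 and -0.72 in young and -0.47, -0.57 and -0.51 in aged cells. Closest to Cpt2 were Ext2, Chd4 and Zhx1, at 0.101, 0.111 and 0.115.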
